A study of Mus musculus with 16 samples.

Results

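The receptors that share the common gamma chain, together with IL-15, were followed through 16 bulk RNA-sequenced mouse melanomas. The members were chosen by gene symbol: Il2rg, the shared gamma chain, Il2rb and Il2ra, the beta and alpha chains of the IL-2 receptor, Il15 and its private receptor chain Il15ra, Il21r and Il4ra. All 7 were among the 18929 genes of the deposited table, and all 7 passed the filter on low values that left 12850 genes for testing. The tumors grew from B16F10 cells, a pigmented mouse melanoma line of C57BL/6 origin, placed in the abdomen, on the right side, of C57BL/6 females aged 7 to 8 weeks. Each of 4 groups held 4 tumors: vehicle (corn oil with an IgG isotype control), an anti-PD1 antibody, which blocks an inhibitory receptor of T cells, α-ketoglutarate (α-KG) at 100 mg/kg, and α-KG + anti-PD1, called the combination below, each given over 9 to 11 days. A single implanted line limits the model, since all tumors share 1 tumor genotype, and each sample was a whole tumor, so that malignant and host cells were measured together.

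Cytokines of this family signal through receptors that pair the gamma chain with a private chain. IL-2 and IL-15 both use the beta chain, and the alpha chain of each raises the affinity for its own cytokine. IL-15 is mostly presented in trans on IL-15 receptor alpha of a neighboring cell and maintains CD8+ T cells and NK cells, while IL-2 receptor alpha marks activated and regulatory T cells. The IL-21 receptor is found on lymphocytes, and the IL-4 receptor alpha chain also sits on myeloid cells, where it is joined by the gamma chain or by IL-13 receptor alpha 1. The gamma chain and its partners recruit JAK1 and JAK3, which act on STAT3, STAT5 and STAT6.

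The genes lie on 5 chromosomes of the GRCm38.p6 build, in the RefSeq annotation. Il2rg is at chrX:101264385-101268255, Il2rb at chr15:78479256-78511621 and Il15 at chr8:82331624-82403252. Il2ra (chr2:11642792-11693194) and Il15ra (chr2:11705172-11733985) are neighbors, separated by 11977 bases that hold no protein-coding gene. Il4ra (chr7:125552271-125579474) and Il21r (chr7:125603252-125634397) are also neighbors, 23777 bases apart with no annotated gene between them. RefSeq start-site windows were matched for 5 of the 7 genes; Il15 and Il2rb were not matched. The 250 bases before the start site are shown for Il2ra and Il2rg because these chains of one receptor had different patterns: the gamma chain was called higher under α-KG and in the combination than in vehicle, and the alpha chain passed the test in no comparison of the values as deposited. Each is written 5′ to 3′ on the strand of its gene, with the letters that matched a searched motif in capitals.

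Il2ra, chr2:11642542-11642791, plus strand: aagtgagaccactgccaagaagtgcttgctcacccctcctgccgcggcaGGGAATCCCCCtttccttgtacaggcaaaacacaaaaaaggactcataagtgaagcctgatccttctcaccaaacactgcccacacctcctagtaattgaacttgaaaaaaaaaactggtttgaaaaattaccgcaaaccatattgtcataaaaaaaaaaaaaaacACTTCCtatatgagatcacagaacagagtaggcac
Il2rg, chrX:101268256-101268505, minus strand: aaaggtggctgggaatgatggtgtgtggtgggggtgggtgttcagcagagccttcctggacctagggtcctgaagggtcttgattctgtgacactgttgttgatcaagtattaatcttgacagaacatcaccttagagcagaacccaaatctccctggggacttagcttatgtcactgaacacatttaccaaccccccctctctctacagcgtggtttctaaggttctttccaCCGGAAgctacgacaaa

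The capitals nearest the start site of Il2ra, 35 to 30 bases before it, are the ETS core GGAAGT read on the reverse strand, which 19.7% of 32851 mouse start-site windows also held on either strand. The capitals farther upstream, 201 to 191 bases before the start, are overlapping matches to an NF-kappaB motif, held by 3.9% of windows. In Il2rg the capitals 17 to 12 bases before the start are the ETS core CCGGAA, which 12% of windows held and which was also in 1 of the 2 Il15ra windows, both of which overlap Il15ra exons. The STAT motif TTCNNNGAA (7.02% of windows), the STAT6 motif TTCNNNNGAA (5.85%) and the IRF motif GAAANNGAAA (2.98%), each searched on both strands, had no match in the windows of these 5 genes. These are matches of letters within short windows and not measured binding sites.

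The deposited values were FPKM, fragments scaled for transcript length and library size, so levels are compared between genes per length. Their sums were 514180 to 527812 in the combination and 549740 to 654772 elsewhere, and the 10 hemoglobin genes took 2.09% to 2.23% of the sum in α-KG + anti-PD1 tumors against 4.23% to 22.3% elsewhere. Genes of the pigment cell lineage (Pmel, Mlana, Tyr, Dct, Tyrp1 and Mitf) summed to 7657 to 10336 FPKM in every tumor, so markers of the labelled cell type were present, and keratinocyte markers stayed under 1 FPKM in sum. Skeletal muscle markers (Ckm, Acta1 and Myh4) moved with the groups: they summed to 26.5 to 360 FPKM in the 4 vehicle tumors, to 33.2 and 19.9 in combination tumors 1 and 2, and to 0.90 to 2.13 in the other 10 tumors. Called lower than in vehicle were 3, 2 and 3 of the 3 in the combination, under anti-PD1 and under α-KG, beside 1348, 36 and 968 of the 12850 genes tested. The part of the muscle markers in the differences from vehicle was not tested. Within α-KG + anti-PD1, tumors 1 and 3 stood above tumors 2 and 4 in leukocyte markers: the 6 T-cell markers summed to 143 and 113 FPKM in the former and to 41.0 and 16.6 in the latter. Depth was not given, and the number of tumors limits the precision of each mean.

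Il2rg, the gamma chain that all of these receptors share, had the highest mean of the members in every group, with Il4ra next in α-KG tumors and Il2rb next in the combination. It measured 7.66, 5.22, 1.19 and 2.03 FPKM in vehicle tumors 1 to 4 and 8.11, 17.2, 21.6 and 12.3 in anti-PD1 tumors. In α-KG tumors it measured 20.8, 22.0, 15.6 and 15.8 FPKM, and in α-KG + anti-PD1 tumors 75.3, 25.3, 78.3 and 16.03. All 12 treated tumors were above the highest vehicle tumor, while the 3 treated groups overlapped each other. The means were 4.03 ± 2.98 FPKM (SD, n = 4) in vehicle, 14.8 ± 5.85 under anti-PD1, 18.6 ± 3.34 under α-KG and 48.7 ± 32.6 in the combination. On the scale of log2(FPKM + 1), where 1 unit doubles FPKM + 1, Il2rg was 3.22 higher in α-KG + anti-PD1 than in vehicle (SE 0.49, limma adjusted p = 0.000460) and 2.15 higher in α-KG than in vehicle (SE 0.49, adjusted p = 0.00735). The difference of anti-PD1 from vehicle was 1.78 (adjusted p = 0.0897) and passed without vehicle tumor 1 (2.11, adjusted p = 0.0241). The neighboring groups in the order of means, α-KG + anti-PD1 and α-KG, differed by 1.07 with a 95% interval from 0.03 to 2.11 (adjusted p = 0.0960), and α-KG and anti-PD1 by 0.37 (-0.67 to 1.42). The combination exceeded anti-PD1 by 1.44 (0.40 to 2.49, adjusted p = 0.0562). The differences of the combination from α-KG and from anti-PD1 passed with tumors rescaled to the same sum (adjusted p = 0.0377 and 0.0240) and without combination tumor 4 (0.0213 and 0.0141). In a whole tumor, more cells of a type and more RNA per cell cannot be told apart.

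Il2rb, the beta chain through which both IL-2 and IL-15 signal, showed the widest range. It measured 2.85, 1.67, 0.20 and 0.17 FPKM in vehicle, 2.30, 8.73, 12.3 and 4.67 under anti-PD1, 2.45, 8.36, 1.46 and 1.19 under α-KG and 77.3, 20.2, 74.99 and 9.79 in the combination. Tumors 1 and 3 of the combination were far above every other tumor, and its tumor 4 fell within the anti-PD1 range. The means were 1.22 ± 1.29 FPKM in vehicle, 7.01 ± 4.43 under anti-PD1, 3.37 ± 3.37 under α-KG and 45.6 ± 35.6 in the combination (SD, n = 4 each). The combination exceeded vehicle by 4.13 on the log2(FPKM + 1) scale (SE 0.66, adjusted p = 0.000476), the largest difference from vehicle of any member. It also exceeded α-KG by 3.23 (SE 0.66, adjusted p = 0.00214) and anti-PD1 by 2.28 (SE 0.66, adjusted p = 0.0335). The last call was lost without anti-PD1 tumor 1 (adjusted p = 0.124), anti-PD1 tumor 4 (0.0965), combination tumor 1 (0.0865) or combination tumor 3 (0.105), and with a pseudocount of 0.1 (0.0699), no filter (0.0543) or a fit to the groups compared (0.0781). Anti-PD1 against vehicle (1.85, adjusted p = 0.181), α-KG against vehicle (0.90, 0.388) and α-KG against anti-PD1 (-0.95, 0.479) did not pass.

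Il2ra, the alpha chain that makes the high-affinity IL-2 receptor, did not follow its partners. It measured 1.73, 0.82, 2.63 and 1.51 FPKM in vehicle and 4.46, 1.21, 1.67 and 1.77 under anti-PD1. The values were 3.07, 3.07, 2.44 and 2.06 FPKM under α-KG and 3.52, 2.07, 3.69 and 1.70 in the combination. All groups overlapped, and the highest value came from an anti-PD1 tumor. The combination mean of 2.75 ± 1.01 FPKM compared with 1.67 ± 0.747 in vehicle, a difference of 0.49 on the log2(FPKM + 1) scale with an interval from -0.08 to 1.06 (adjusted p = 0.148). This difference changed sign under quantile normalization (-0.02) and passed when all tumors were rescaled to the same sum (adjusted p = 0.0437), so no direction is given for it. None of the 6 comparisons between groups nor the interaction described below passed for Il2ra in the fit as deposited. Regulatory T-cell markers (Foxp3, Ikzf2 and Ctla4) summed to 4.31 to 11.6 FPKM in the combination and to 0.39 to 2.45 FPKM in all other tumors. Ctla4 alone was 2.44 to 8.17 FPKM in the combination, and Foxp3 was 0.71 to 3.12. All 3 were called higher there than in vehicle, beside 34.9% of all genes. T-cell markers, given below, were also higher there. By flow cytometry of tumors, the paper found no obvious change in regulatory T cells. That measure was a proportion of cells, which is unlike RNA summed over a whole tumor. The part of these 3 markers in the Il2ra levels was not tested.

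**Figure D1:**
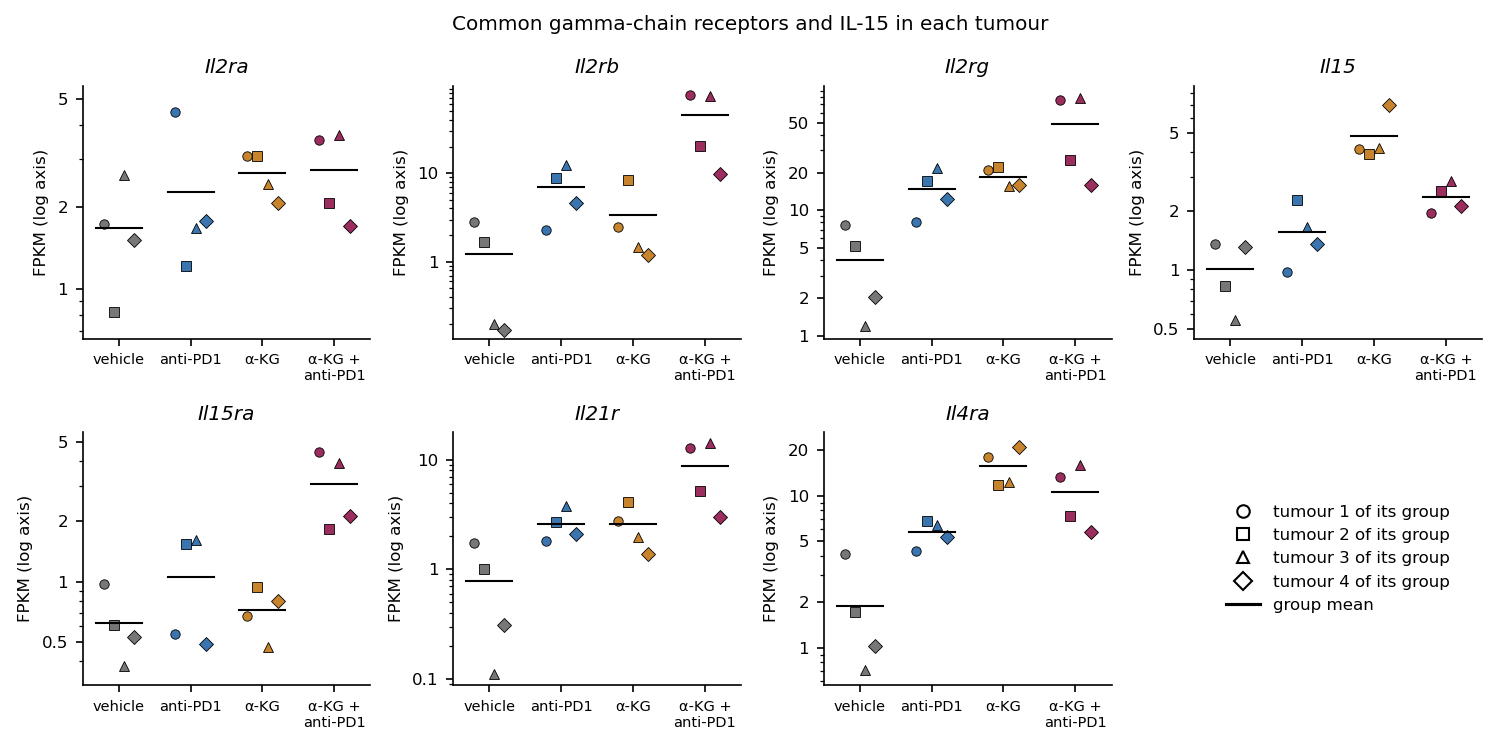
FPKM of the 7 genes in each tumor, on log axes, with 4 tumors per group (circle, square, triangle and diamond for tumors 1 to 4, with no pairing across groups) and a bar at the group mean. Il2rb, Il2rg, Il15ra and Il21r were highest in the α-KG + anti-PD1 group and there in tumors 1 and 3, Il15 was highest in the α-KG group, where Il4ra had its highest mean, and Il2ra overlapped in all groups.

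Il15, the cytokine itself, was highest under α-KG alone. It measured 1.36, 0.83, 0.56 and 1.32 FPKM in vehicle, 0.98, 2.29, 1.66 and 1.36 under anti-PD1, 4.16, 3.92, 4.22 and 6.97 under α-KG and 1.96, 2.53, 2.85 and 2.12 in the combination. The 4 α-KG tumors were above all other tumors, and the combination lay between them and vehicle without overlap with either. The means were 1.02 ± 0.389, 1.57 ± 0.553, 4.82 ± 1.44 and 2.37 ± 0.403 FPKM in that order (SD, n = 4 each). Il15 was 1.52 higher in α-KG than in vehicle on the log2(FPKM + 1) scale (SE 0.19, adjusted p = 4.0e-05) and 1.17 higher than under anti-PD1 (SE 0.19, adjusted p = 0.00106). The combination was 0.77 below α-KG (SE 0.19, adjusted p = 0.00565) and 0.75 above vehicle (SE 0.19, adjusted p = 0.00507), the latter lost under quantile normalization (adjusted p = 0.21). The combination and anti-PD1, neighbors in the order, differed by 0.40 (0.01 to 0.80, adjusted p = 0.141).

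Il15ra, which presents IL-15 to neighboring cells, had a different order. It measured 0.97, 0.61, 0.38 and 0.53 FPKM in vehicle, 0.55, 1.55, 1.61 and 0.49 under anti-PD1, 0.67, 0.94, 0.47 and 0.80 under α-KG and 4.45, 1.84, 3.91 and 2.12 in the combination. All combination tumors were above all 12 others, and the other groups overlapped at levels mostly under 1 FPKM. The combination mean was 3.08 ± 1.29 FPKM, against 0.623 ± 0.251 in vehicle, 1.05 ± 0.613 under anti-PD1 and 0.720 ± 0.200 under α-KG. On the log2(FPKM + 1) scale the combination exceeded vehicle by 1.29 (SE 0.23, adjusted p = 0.000716), α-KG by 1.20 (SE 0.23, adjusted p = 0.00157) and anti-PD1 by 0.99 (SE 0.23, adjusted p = 0.0175). The last difference did not pass without anti-PD1 tumor 1 (adjusted p = 0.0714), anti-PD1 tumor 4 (0.0651) or combination tumor 3 (0.0615), nor in a fit to the groups compared (0.0724). α-KG against vehicle gave 0.09 (-0.40 to 0.58, adjusted p = 0.839), which turned to -0.09 under quantile normalization. Cytokine and presenting chain therefore had their highest means in different groups.

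Il21r, the private chain for IL-21, a cytokine of helper T cells, ran with the beta and gamma chains. It measured 1.73, 1.00, 0.11 and 0.31 FPKM in vehicle and 1.80, 2.71, 3.78 and 2.10 under anti-PD1. The values were 2.77, 4.15, 1.99 and 1.39 FPKM under α-KG and 12.8, 5.22, 14.2 and 2.99 in the combination. Every combination tumor was above every vehicle tumor, but its lowest tumor was below the highest of each single-agent group. The combination exceeded vehicle by 2.34 (SE 0.39, adjusted p = 0.000567), α-KG by 1.31 (SE 0.39, adjusted p = 0.0168) and anti-PD1 by 1.27 (SE 0.39, adjusted p = 0.0417) on the log2(FPKM + 1) scale. Leaving out single tumors ended the call against anti-PD1 for anti-PD1 tumors 1 (adjusted p = 0.132) and 4 (0.111) and combination tumors 1 (0.109) and 3 (0.131). It ended the call against α-KG for α-KG tumor 4 (0.0503) and combination tumors 1 (0.0545) and 3 (0.0598). A pseudocount of 0.1 also ended the call against α-KG (0.0518), and 5 settings ended that against anti-PD1: a pseudocount of 0.1 (0.10), no filter (0.0668), quantile normalization (0.0722), centering (0.0527) and a fit to the groups compared (0.0870). Anti-PD1 and α-KG had nearly equal means, 2.60 ± 0.875 and 2.58 ± 1.19 FPKM, and differed by -0.04 with an interval from -0.87 to 0.80. α-KG against vehicle (1.03, adjusted p = 0.0873) passed without vehicle tumor 1 (adjusted p = 0.0393) and with a pseudocount of 0.1 (0.0378).

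Il4ra, the chain that binds IL-4 and serves lymphoid and myeloid cells, had its highest mean under α-KG alone. It measured 4.12, 1.72, 0.71 and 1.02 FPKM in vehicle and 4.32, 6.82, 6.43 and 5.34 under anti-PD1. The values were 17.8, 11.8, 12.2 and 20.8 FPKM under α-KG and 13.2, 7.39, 15.9 and 5.78 in the combination. All treated tumors were above the highest vehicle tumor, α-KG was above anti-PD1 without overlap, and the combination overlapped both. The α-KG mean of 15.7 ± 4.38 FPKM exceeded vehicle, 1.89 ± 1.54, by 2.62 on the log2(FPKM + 1) scale (SE 0.33, adjusted p = 4.7e-05), and the combination, 10.6 ± 4.77, exceeded vehicle by 2.04 (SE 0.33, adjusted p = 0.000495). Anti-PD1, 5.73 ± 1.13 FPKM, was 1.34 above vehicle (adjusted p = 0.0630), which passed without vehicle tumor 1 (1.66, adjusted p = 0.0111), with a pseudocount of 0.1 (0.0390) and after centering (0.0442). α-KG exceeded anti-PD1 by 1.29 (SE 0.33, adjusted p = 0.0435), but this call did not survive the removal of any one tumor of either group (adjusted p = 0.0514 to 0.121), a pseudocount of 0.1 (0.10), no filter (0.0783) or rescaling to the same sum (0.0825). The combination was 0.59 below α-KG (-1.29 to 0.11, adjusted p = 0.168), and this difference passed under quantile normalization (adjusted p = 0.032) and centering (0.0294).

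Counted over the members, 6 of 7 were called higher in α-KG + anti-PD1 than in vehicle, where 34.9% of the 12850 genes tested were called higher. The median difference of the members was 2.04 on the log2(FPKM + 1) scale, beside 0.15 over all genes tested. For α-KG against vehicle 3 of 7 were called higher beside 8.4% of all genes, with medians of 1.03 and -0.04. For anti-PD1 against vehicle 0 of 7 were called by limma beside 0.467% of all genes called higher, although 4 members and 2130 genes had an unadjusted p under 0.05, and the medians were 1.07 and 0.03. The combination exceeded anti-PD1 in 3 of 7 members (14.2% of all genes, medians 0.99 and 0.12). Against α-KG alone it was called higher for 3 members and lower for 1 (31.8% and 6.47% of all genes, medians 1.07 and 0.16), and α-KG was called higher than anti-PD1 for 2 members (2.8% of all genes, medians 0.24 and -0.07). The shares called among all genes moved with the scaling: of the genes that differed between combination and vehicle, 4479 were higher and 1348 lower as deposited, 2241 and 3994 after quantile normalization, 2197 and 4803 after centering on tumor medians, and 6294 and 250 with every tumor rescaled to the same sum. The all-gene median was 0.15 as deposited and -0.11, -0.16 and 0.34 under those scalings. The members called higher numbered 5, 6 and 7 there, with Il15 the one lost and Il2ra the one gained. The 4 vehicle tumors serve in all 3 contrasts with vehicle.

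The interaction asks whether α-KG changed a gene by the same amount with anti-PD1 as without it. It was negative for Il15 (-1.12, SE 0.26, adjusted p = 0.0168) and for Il4ra (-1.92, SE 0.46, adjusted p = 0.0179), so that the α-KG difference of both was smaller in the presence of anti-PD1. These were 2 of 7 members, where 3.13% of all genes were called lower and 7.99% higher, and the medians were -0.24 for the members and 0.15 for all genes. For Il15ra the interaction was 0.90 (0.21 to 1.59, adjusted p = 0.0825) and passed without anti-PD1 tumor 2 (adjusted p = 0.0443) and with tumors rescaled to the same sum (0.0464). For Il2rb the estimate of 1.39 had an interval from -0.59 to 3.36 (adjusted p = 0.332), too wide to give a direction.

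**Figure D2:**
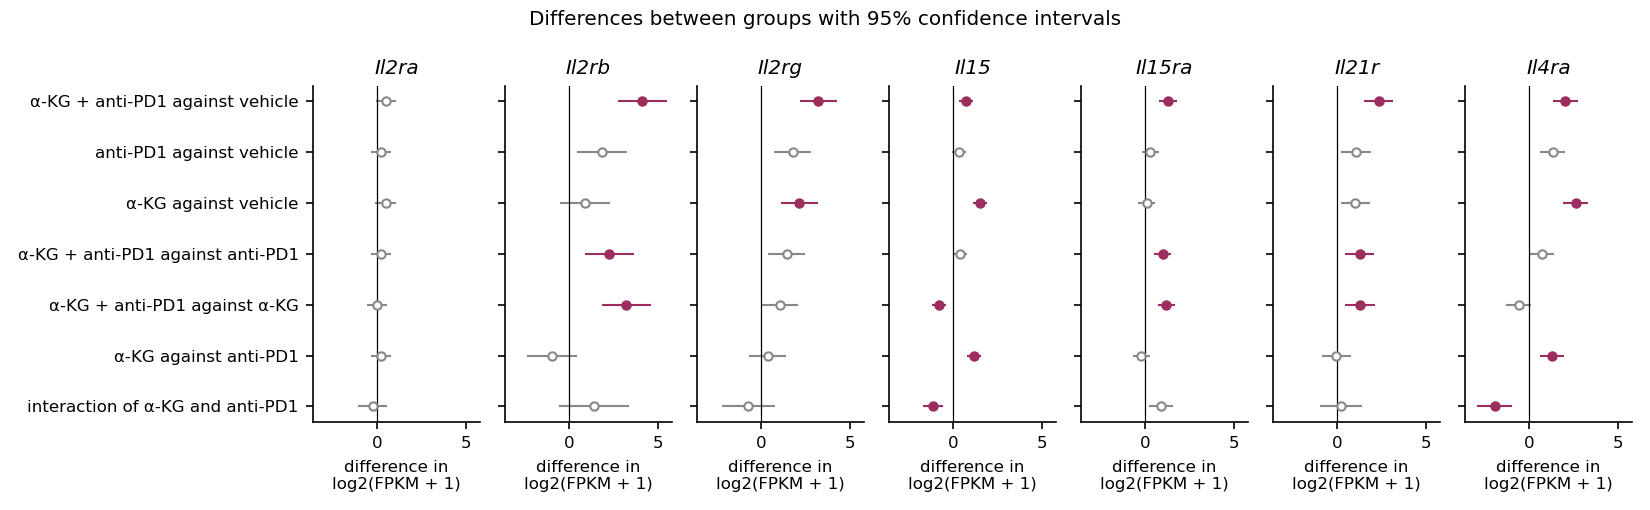
Differences in log2(FPKM + 1) between groups for each gene, with 95% confidence intervals from the limma fit. Filled points have an adjusted p under 0.05. They include all genes but Il2ra in the top row (combination against vehicle) and negative points for Il15 and Il4ra in the interaction row. Further filled points lie in rows between, but none for anti-PD1 against vehicle.

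Genes were also compared inside each tumor, as differences of log2(FPKM + 1) between 2 genes or between a gene and a marker mean, tested by exact permutation tests over tumors. With 4 tumors per group the smallest two-sided p is 0.0286, and over the 18 tests the smallest Benjamini-Hochberg value was 0.0514, so none passed after adjustment. With this floor the smallest adjusted value depends on how many of the 18 tests reach 0.0286. The lack of a pass therefore does not show that the differences were absent. Il2rb minus Il2rg was 0.04, -0.31, -0.06 and -0.66 in combination tumors 1 to 4, between -1.46 and -0.76 under anti-PD1, between -1.37 and -0.87 in vehicle and between -2.94 and -1.30 under α-KG. The combination was above every other tumor in this difference, by 0.91 over vehicle, 0.84 over anti-PD1 and 2.17 over α-KG in the mean (exact permutation p = 0.0286 each, adjusted 0.0514). The beta chain was far under the gamma chain in 3 of the 4 α-KG tumors and near it in combination tumors 1 and 3. Il2ra minus Il2rb was 3.64 lower in the combination than in vehicle and 3.23 lower than under α-KG (exact permutation p = 0.0286 each, adjusted 0.0514), and 2.04 lower than under anti-PD1 (exact permutation p = 0.0857). Il15ra minus Il15 was between -2.15 and -1.34 in α-KG tumors and between -0.31 and 0.88 in the combination, a mean difference of 1.97 (exact permutation p = 0.0286, adjusted 0.0514). Against vehicle and anti-PD1 it was 0.54 (exact permutation p = 0.114) and 0.58 (exact permutation p = 0.0571). Il2rg minus the pan-leukocyte marker mean was higher in the combination than in vehicle by 0.47 and than under α-KG by 1.15 (exact permutation p = 0.0286 each, adjusted 0.0514), and Il4ra minus the same mean differed from vehicle by -0.72 (exact permutation p = 0.0571). The pseudocount compresses these differences where a gene is near or under 1 FPKM.

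**Figure D3:**
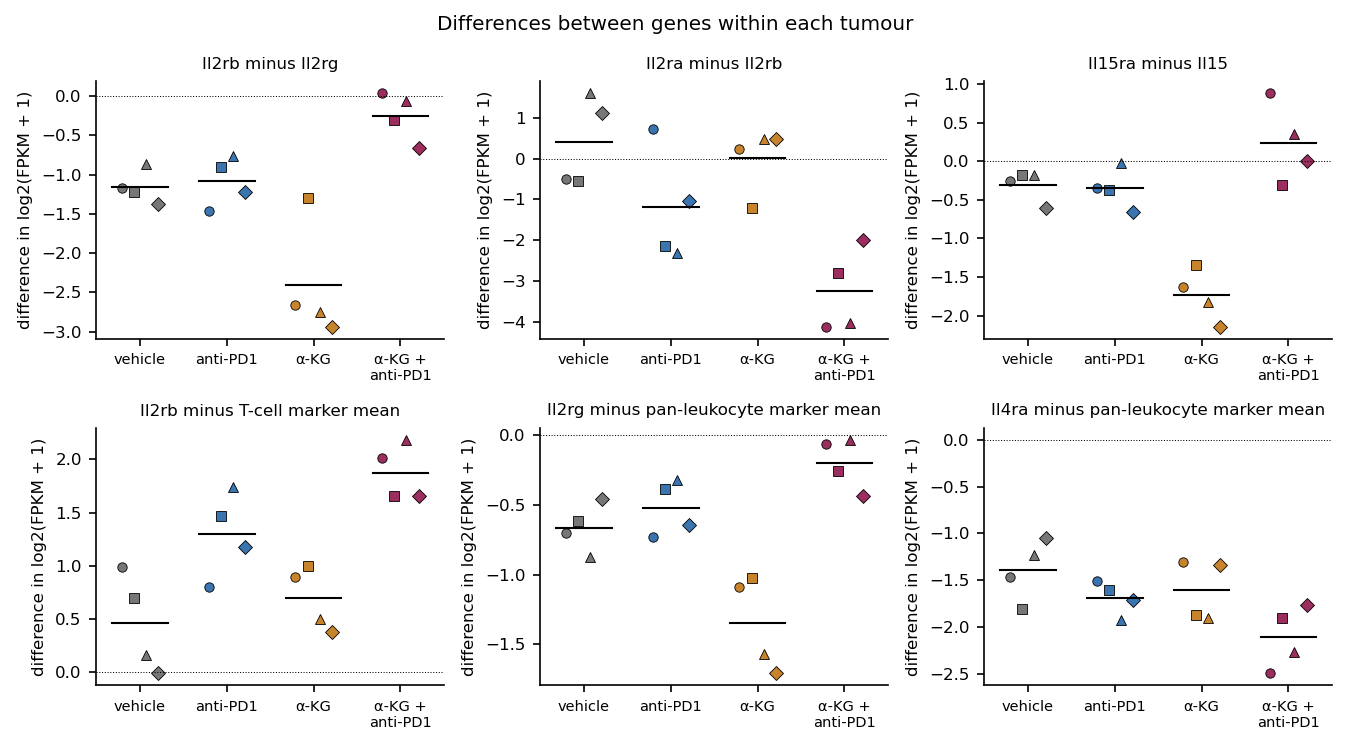
Differences in log2(FPKM + 1) between 2 genes, or between a gene and the mean of a marker list, within each tumor, with a bar at the mean of each group of 4 tumors and a dotted line at 0. Il2rb came closest to Il2rg in the α-KG + anti-PD1 tumors (-0.66 to 0.04), and Il15ra lay farthest under Il15 in the α-KG tumors (-2.15 to -1.34).

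Other genes of the pathway were taken from 3 lists. Of 9 further ligands and receptors, 8 were in the table and 2 passed the filter, Il7r, the private IL-7 receptor chain, and Il13ra1. Il7r measured 0.54 to 1.92 FPKM in vehicle, 2.76 to 6.67 under anti-PD1, 2.94 to 6.51 under α-KG and 3.07 to 9.41 in the combination, and it was called higher than in vehicle in the combination (1.70, adjusted p = 0.00131) and under α-KG (1.30, adjusted p = 0.0161). Il13ra1 rose in the same comparisons (0.80, adjusted p = 0.0115, lost under quantile normalization, and 1.37, adjusted p = 0.00074). The ligand genes were near the lower end of the table: Il2 was listed at 0 in 15 tumors and at 0.18 FPKM in combination tumor 1, Il4 at 0 in 15 tumors and at 0.18 in combination tumor 3, and Il21 and Il7 did not exceed 0.13 and 0.23 FPKM.

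All 6 of the kinases and STAT factors were called higher in the combination than in vehicle, with a median difference of 0.62, where 34.9% of all genes were called higher and their median was 0.15. The count fell to 5 under quantile normalization and to 3 after centering on tumor medians, where 2241 and 2197 of all genes were called higher. Jak3, the kinase that binds the gamma chain, differed most and measured 18.9, 8.24, 19.1 and 6.89 FPKM in the combination against 4.15 to 4.61 in vehicle (1.28, adjusted p = 0.00110). Stat6, which serves the IL-4 receptor, differed least (0.25, adjusted p = 0.0101) and had a difference of -0.060 after centering. Stat5a was the only one called for α-KG against vehicle (0.43, adjusted p = 0.0169, lost when tumors were rescaled to the same sum), beside 8.4% of all genes called higher. For anti-PD1 against vehicle 0 of the 6 were called by limma, beside 0.467% of all genes called higher. An unadjusted p under 0.05 was reached by 3 of the 6 there, beside 2130 of the 12850 genes tested.

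Of 12 genes known to be induced by STAT5 or STAT6, 10 were tested, and all 10 were called higher in the combination than in vehicle (median 1.28), beside 34.9% of all genes and an all-gene median of 0.15. In α-KG against vehicle 7 of them were called higher (median 1.45), beside 8.4% of all genes and a median of -0.04. The first count fell to 7 under quantile normalization or centering, where 2241 and 2197 of all genes were called higher. The second was 7 under each scaling, where 843 to 1055 of all genes were called higher. Some of them differed between the combination and α-KG alone. Socs1, a feedback inhibitor of JAK kinases, was 2.20 higher in the combination than under α-KG (adjusted p = 0.00413), at 28.3, 9.70, 32.3 and 5.12 FPKM against 1.92 to 3.38. Socs3, an inhibitor of IL-6 type and G-CSF receptors, was 1.40 lower in the combination than under α-KG (adjusted p = 0.00266), at 26.1, 10.5, 26.7 and 17.1 FPKM against 50.6, 35.5, 46.4 and 83.5, and the kinase gene Pim1 was 1.44 lower (adjusted p = 0.00192). Cish, a STAT5-induced inhibitor, was higher than in vehicle in the combination (1.32, adjusted p = 0.00164) and under α-KG (1.41, adjusted p = 0.00224), and these treatments differed by -0.09 (adjusted p = 0.811). Arg1 was the single gene of the list called for anti-PD1 against vehicle (1.96, adjusted p = 0.0334), beside 0.467% of all genes called higher. The negative interaction passed for 3 of the 10, where 3.13% of all genes were called lower: Arg1 (-2.89, adjusted p = 0.00360), Socs3 (-2.17, adjusted p = 0.00575) and Pim1 (-1.97, adjusted p = 0.00807). It passed for 5 under quantile normalization or centering, where 559 and 633 of all genes were called lower. Several of these genes also respond to other cytokines or mark myeloid cells.

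Markers of leukocytes moved with the same groups. The 6 T-cell markers summed to 0.44 to 6.00 FPKM in vehicle, 5.93 to 20.3 under anti-PD1, 4.31 to 25.1 under α-KG and 16.6 to 143 in the combination. All 6 were called higher in the combination than in vehicle and than under α-KG, beside 34.9% and 31.8% of all genes. Cd8a and Cd8b1 summed to 0.61 to 3.87 FPKM in vehicle and 8.06 to 78.1 in the combination. Under anti-PD1 and α-KG they summed to 4.64 to 14.7 and 1.35 to 15.3. The 4 NK-cell markers summed to 0 to 0.33 in vehicle and 1.42 to 20.8 in the combination. Under anti-PD1 and α-KG the NK-cell sums were 0.84 to 2.93 and 0.26 to 1.05. Neutrophil markers (S100a8, S100a9, Csf3r and Cxcr2) summed to 1002 to 2624 FPKM in α-KG tumors and to 17.3 to 104 FPKM in all other tumors. All 4 were called higher in α-KG than in vehicle and lower in the combination than under α-KG, beside 8.4% and 6.47% of all genes. Beside the high Il15 and Il4ra of the α-KG group, the neutrophil sums of its tumors 1 to 4 were 1429, 1002, 1897 and 2624 FPKM. Tumor 4 was highest and tumor 2 lowest in this sum, in Il15 and in Il4ra. Tumors 1 and 3 stood in the same order for the sum and Il15 (4.16 and 4.22 FPKM) and in opposite order for the sum and Il4ra. No relation with neutrophil markers was computed. These orders rest on 4 tumors and are a description only, and the part of neutrophils in Il15 and Il4ra was not tested. The 4 pan-leukocyte markers summed to 15.9 to 72.5 FPKM in vehicle, 83.6 to 151 under anti-PD1, 213 to 239 under α-KG and 112 to 426 in the combination. The part of leukocyte number in the levels of the 7 genes was not tested, and Il2rb minus the T-cell marker mean was 1.41 higher in the combination than in vehicle and 1.18 higher than under α-KG (exact permutation p = 0.0286 each, adjusted 0.0514), at 1.65 to 2.18 against -0.01 to 0.99 in vehicle on the log2(FPKM + 1) scale. Against anti-PD1 the excess was 0.58 (exact permutation p = 0.0857, adjusted 0.0964). Macrophage markers summed to 54.3 to 243 FPKM in vehicle and 332 to 805 in the combination. Under anti-PD1 and α-KG they summed to 221 to 407 and 271 to 375, both overlapping the combination. All 5 were called higher in the combination than in vehicle, beside 34.9% of all genes. Against α-KG and anti-PD1 2 and 0 were, beside 31.8% and 14.2%. For α-KG and anti-PD1 against vehicle 3 and 1 were, beside 8.4% and 0.467%. B-cell markers summed to 4.45 to 5.16 in vehicle, 3.70 to 6.67 under anti-PD1, 3.73 to 27.4 under α-KG and 2.19 to 5.46 in the combination. Dendritic-cell markers summed to 2.10 to 4.16 FPKM in vehicle and 4.87 to 10.5 in the combination. Under anti-PD1 and α-KG they summed to 3.97 to 4.15 and 2.63 to 7.09. Endothelial markers summed to at most 4.21 in any tumor and fibroblast markers to 3.28 to 20.8 over all tumors. Red-cell markers summed to 4712 to 5049 in the combination against 10201 to 62347 elsewhere.

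**Figure D4:**
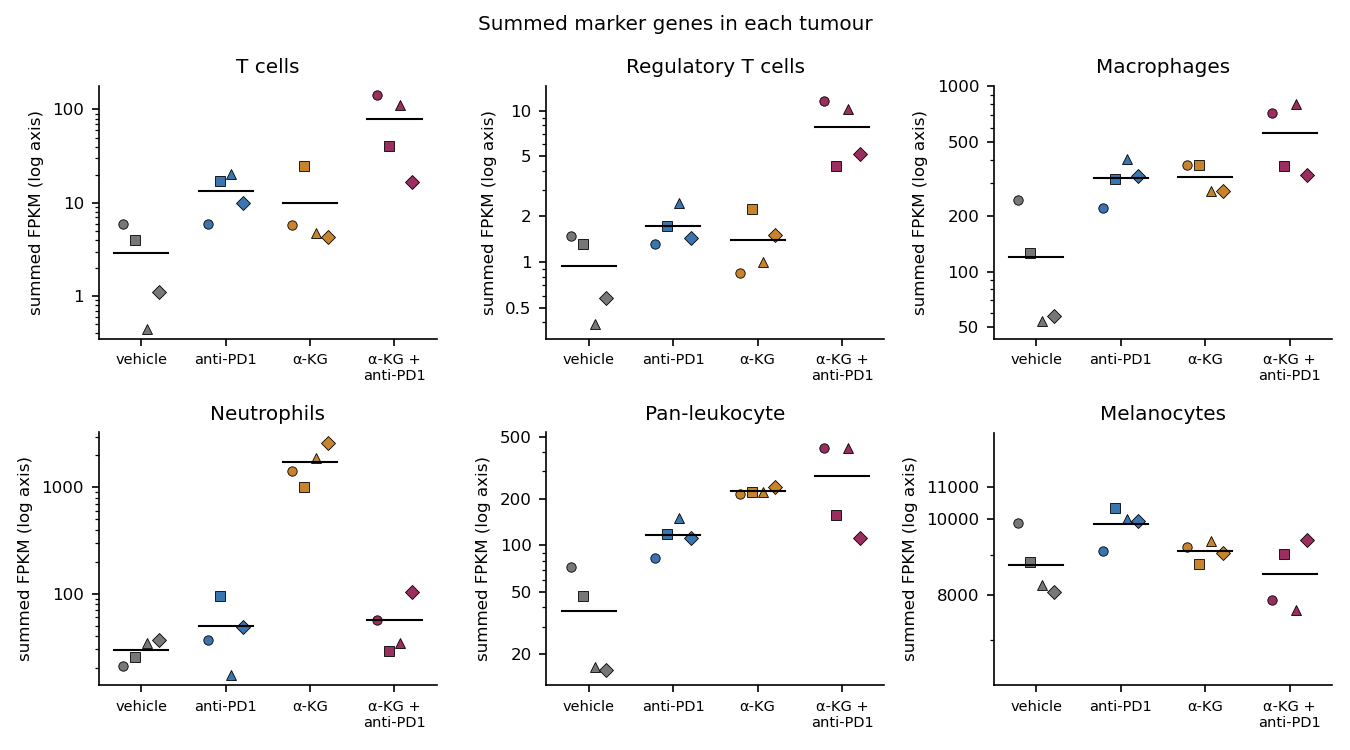
Summed FPKM of 6 marker lists in each tumor, on log axes, with circle, square, triangle and diamond for tumors 1 to 4 of a group and a bar at the group mean. T-cell markers were highest in α-KG + anti-PD1 tumors 1 and 3 (143 and 113 FPKM), neutrophil markers in the 4 α-KG tumors (1002 to 2624 FPKM), and melanocyte markers stayed between 7657 and 10336 FPKM.

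Across the 16 tumors, with each group mean removed, members were compared with 4 marker lists: T cells, NK cells, macrophages and pan-leukocyte. Some members varied with these lists, and for Il2ra and Il15 no such relation was found. Neutrophil markers were not among the lists. A total of 28 relations were computed, 7 genes with the 4 lists, with permutations within groups. Il2rb followed the T-cell marker mean (Pearson's r = 0.971, permutation p = 2.0e-05, adjusted p = 0.000280, and Spearman's rho = 0.935, permutation p = 6.0e-05, adjusted p = 0.000336), and r was 0.965 without the 2 tumors whose marker mean lay farthest from its median. Il2rg followed the pan-leukocyte mean (r = 0.959, permutation p = 0.000570, adjusted p = 0.00145, and rho = 0.921, permutation p = 0.00182, adjusted p = 0.00463, with r = 0.941 without 2 tumors). Il4ra also followed the pan-leukocyte mean (r = 0.908, permutation p = 0.000200, adjusted p = 0.000672, and rho = 0.900, permutation p = 0.000780, adjusted p = 0.00264, with r = 0.858 without 2 tumors). Il15ra followed the T-cell mean less closely (r = 0.806, permutation p = 0.00272, adjusted p = 0.00476, and rho = 0.806, permutation p = 0.00302, adjusted p = 0.00705, with r = 0.784 without 2 tumors). Relations were not particular to 1 list: Il2rb, Il2rg, Il15ra and Il21r passed with all 4 lists, and Il4ra also with the macrophage mean (r = 0.865). With its other lists Il2rb gave r = 0.772 to 0.834 and Il2rg 0.787 to 0.936. The r of Il15ra with the T-cell mean was 0.705 after quantile normalization. Il4ra with the T-cell mean did not pass (r = 0.589, permutation p = 0.0516, adjusted p = 0.0760). For Il2ra and Il15 no relation passed, with r from -0.03 to 0.38 and from 0.05 to 0.34. The points share the libraries, and the high leukocyte marker levels of tumors 1 and 3 of the combination enter every pair.

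**Figure D5:**
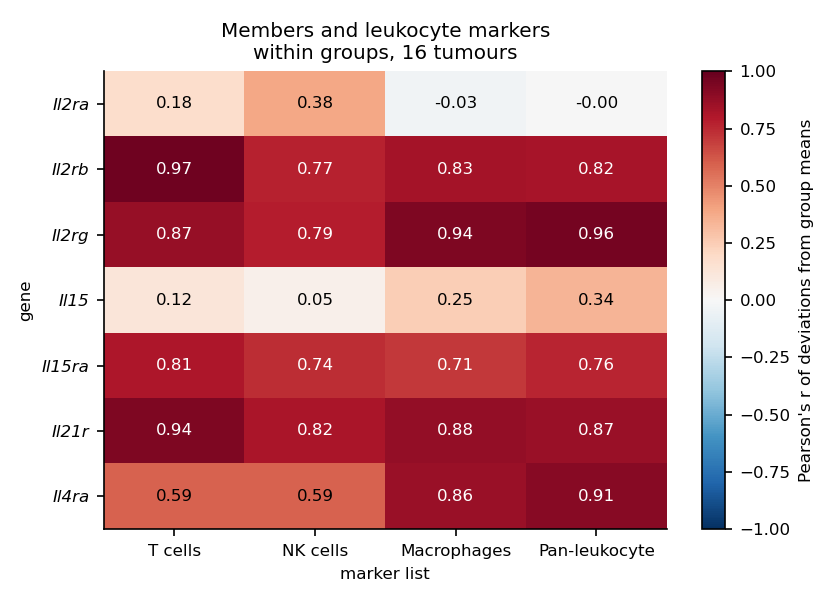
Pearson's r between each gene (rows) and the mean of 4 marker lists (columns), computed over 16 tumors on log2(FPKM + 1) with group means removed. Il2rb with T cells (0.97) and Il2rg with pan-leukocyte markers (0.96) had the highest values, and the rows of Il2ra and Il15 stayed between -0.03 and 0.38.

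Among the members, the same deviations gave r = 0.962 for Il2rb with Il21r, 0.952 for Il2rg with Il21r and 0.921 for Il2rb with Il2rg, against 0.07 for Il2rb with Il2ra. Il15 and Il15ra gave 0.406, and the neighboring genes Il4ra and Il21r 0.718 and Il2ra and Il15ra -0.01. The tested genes outside the list with the pattern most like Il2rb over the 16 tumors were Thy1 (r = 0.990), a surface protein of T cells, Gpr65 (0.988) and Prf1 (0.986), which encodes perforin. For Il2rg they were Plbd1, Dock2 and Casp1 (0.979 to 0.987), for Il21r Tnfaip8l2, Ms4a6b and Bscl2 (0.976 to 0.982) and for Il4ra Cyth4, Pik3ap1 and Slc11a1 (0.951 to 0.958). For Il15ra they were Dusp10, Dtx3l and Tent5a (0.938 to 0.946), for Il15 Znrf3, Rabgef1 and Btrc (0.866 to 0.904) and for Il2ra Klhl33, Hyal3 and Neurl1b (0.904 to 0.912). These are the highest over all genes tested and are given as a description.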

How the data were processed

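Poly(A) RNA of 16 tumors was selected on oligo-dT and made into dUTP-marked, stranded libraries for DNBSEQ sequencing. The authors deposited 1 table of FPKM values with 2 decimals for 18929 genes and 16 tumors; HISAT, Bowtie2 and mm10 are named in the submitters' processing notes without a role, and the counting program and annotation are not given in the sources used here. Depth is unknown: of 9298 low values in 715 genes, 16.9% lay within 0.1 of a whole multiple, where an even spread gives 20%, so reads could not be recovered.

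Groups were taken from the labels. Each tumor is described as a separate sample, and the labels give no batch. Genes reaching 0.5 FPKM in 4 or more tumors (12850) were analysed as log2(FPKM + 1), which understates the change of low genes, with limma 3.58.1 in R 4.3.3 (1 mean per group over all 16 tumors, moderated with a trend). Benjamini-Hochberg adjustment covered every gene tested, and a gene was called at an adjusted p under 0.05. Differences within tumors were tested with two-sided exact permutation tests, and correlations with permutations within groups (Python 3.11.15, scipy 1.17.1). The fit was also run on simulated data for the combination against vehicle (12850 genes, 200 changed). There it recovered 89% of genes changed by a log2 of 1 and 98% of those changed by 2, with 12 false among 199 calls. In the tumors 5827 genes were called in this comparison. Whether these figures carry over to the tumors was not tested.

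The members and lists were chosen with earlier results of these data known. Named genes are the members, the 3 pathway lists, the marker lists and the 3 genes most like each member. Motifs, the marker correlations and the list counts under other scalings were chosen after the data were seen. Tumors with the same number did not deviate together (r from -0.642 to 0.411 over 24 pairs), so that the numbers do not pair them. Alternatives were another pseudocount, no filter, 4 scalings, a replicate block, a fit to the compared groups and leaving out each tumor.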

Additional observations from a re-analysis of the deposited data

Results flagged for a closer look

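Il15 in α-KG tumor 4, at 6.97 FPKM, stood apart from the other 3 tumors of its group by a gap of 0.902 of the group's range. This was 1 of 28 groups of 4 values examined, and chance marks about 1 in 20. The α-KG difference of Il15 depended on anti-PD1, with an interaction of -1.12 on the log2(FPKM + 1) scale (limma adjusted p = 0.0168), and so did that of Il4ra, with -1.92 (adjusted p = 0.0179).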

How the results depend on the processing

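The 1013 recomputed single values pooled gene differences, judged by adjusted p, with differences within tumors, judged by the unadjusted exact permutation p. Of these values, 917 kept their direction and their side of the threshold. By the p used for each, 57 no longer passed and 21 newly passed. The other 18 changed sign, all in differences that did not pass. No difference within tumors passed after adjustment as reported, so the 57 and 21 do not count changes of called genes alone. Il2ra changed sign under quantile normalization in the combination against vehicle (-0.023), against anti-PD1 (-0.11) and against α-KG (-0.34), the last also with a pseudocount of 0.1 (-0.010) and centering (-0.27); with 1 tumor left out, the last ran from -0.12 to 0.15, Il2ra in anti-PD1 against vehicle from -0.032 to 0.41 and its interaction from -0.40 to 0.034. Il15ra in α-KG against vehicle turned to -0.093 under quantile normalization. Il21r in α-KG against anti-PD1 was 0.0024 after centering, and its interaction was -0.43 with a pseudocount of 0.1 (with 1 tumor left out, -0.23 to 0.14 and -0.043 to 0.60). The members called in anti-PD1 against vehicle numbered 1 instead of 0 with a pseudocount of 0.1 or centering and 0 to 2 when 1 tumor was left out. All genes called there numbered 312 and 201 in these settings, against 96 as reported. Without vehicle tumor 1, where 2 members were called, they numbered 885. In the combination against anti-PD1 the members called fell from 3 to 1 with a pseudocount of 0.1 or no filter, to 0 in a fit to the groups compared, and ranged from 0 to 4 when 1 tumor was left out (0 without anti-PD1 tumor 1 or 4 or combination tumor 3). The calls over all genes fell as well, from 1987 to 1489, 1395 and 0 in these 3 settings. Without anti-PD1 tumor 1, anti-PD1 tumor 4 or combination tumor 3 they were 228, 316 and 350. Against α-KG the combination had 4 called members, 3 with a pseudocount of 0.1, 5 under quantile normalization, centering or rescaling to the same sum, and 3 to 5 when 1 tumor was left out. Over all genes the calls were 4918 as reported, 4778 with that pseudocount and 4043, 4885 and 7197 under those scalings. With 1 tumor left out they ran from 3459 to 4839. In α-KG against anti-PD1 the members called fell from 2 to 1 with a pseudocount of 0.1, without the filter, with either rescaling to the same sum and without any one tumor. Over all genes the calls there were 406 as reported, 373 with that pseudocount and 377 without the filter. They were 276 with rescaling to the same sum, 449 with hemoglobin genes left out of that sum and 275 to 415 without 1 tumor. The replicate numbers share only a label: with the replicate block, the members called in α-KG against anti-PD1 fell from 2 to 1, Il4ra being lost (adjusted p = 0.0702), and all genes called fell from 406 to 316. Over all genes, the calls ranged from 4265 to 7000 (5827 as reported) for the combination against vehicle, 0 to 885 (96) for anti-PD1 against vehicle, 1246 to 2683 (2048) for α-KG against vehicle, 0 to 4234 (1987) for the combination against anti-PD1, 3459 to 7197 (4918) for the combination against α-KG, 275 to 501 (406) for α-KG against anti-PD1 and 699 to 2394 (1429) for the interaction. The causes were not tested. Values near or under 1 FPKM are the least precise.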
